A study of Mus musculus with 6 samples.

Results

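The 10 core genes of planar cell polarity described here are Celsr1, Celsr2, Fzd3, Fzd6, Vangl1, Vangl2, Dvl1, Dvl2, Dvl3 and Prickle2. They were found by gene symbol among the 48577 genes counted. RNA was sequenced from tdTomato-positive and tdTomato-negative lung cells of C57BL/6 mice carrying Miwi2-tdTomato, an allele in which the fluorescent protein tdTomato reports Piwil4, the gene of the Piwi protein MIWI2. Both fractions carry the allele and were sorted as negative for CD45, the leukocyte surface marker, and positive for EpCAM, an epithelial surface marker. There were 3 tdTomato-positive and 3 tdTomato-negative libraries, with 1 of each from each of 3 mice, and the main test compares them within mice. The labels call both fractions multiciliated cells, but the sorting gates they give include none for cilia, and no age is given.

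Planar cell polarity aligns cells along the plane of a tissue. Its core proteins sit at cell junctions in asymmetric complexes, with a Frizzled receptor and Dishevelled at the junction on the face of a cell that meets Vangl and Prickle on the face of its neighbour, and with Celsr cadherins bridging the gap between them. In the airway this asymmetry orients the basal bodies of multiciliated cells, so that cilia beat together and carry mucus in a common direction. Members of each small family (Celsr, Fzd, Vangl, Dvl) are paralogs whose functions partly overlap.

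Counts in genes ranged from 5330584 to 6326395 per library, and a gene with no read could still be at up to 0.475 to 0.585 CPM, the level of 3 reads. CPM are reads scaled by library size, here with TMM factors, which adjust that size for composition. Piwil4, which follows the sort, was at 101, 95.7 and 111 CPM in the tdTomato-positive libraries of mice 1, 2 and 3, against 44.0, 29.97 and 45.6 CPM in the tdTomato-negative ones. The tdTomato-positive library of mouse 1 stood apart from the others on the first principal component, at -79.4 against -7.8 to 35.2, so values without mouse 1 are given as well. All 10 listed multiciliated cell markers were expressed, at a summed 5425 to 5735 CPM in the tdTomato-positive and 5154 to 5202 CPM in the tdTomato-negative libraries, and 3 of them were called higher. The fractions also held other epithelial RNA. Alveolar type 2 markers summed to 552 to 1065 CPM in tdTomato-positive against 6108 to 7458 CPM in tdTomato-negative libraries, with 8 of 10 called lower, and club cell markers to 9282 to 22544 against 5566 to 9044 CPM, with 4 of 7 called higher. Leukocyte markers summed to 31.9 to 73.3 CPM in tdTomato-positive against 64.0 to 213 CPM in tdTomato-negative libraries. Of these 9, 4 were tested and 2 called lower. Basal cell markers summed to 0 to 0.791 against 7.57 to 14.0 CPM. Of these 4, only Trp63 was tested, and it was called lower. It had 0 reads in every tdTomato-positive library and 22, 58 and 48 in the tdTomato-negative ones. Trp63 thus passed the filter only through the fraction where it was high, and Krt5, Krt14 and Ngfr had too few reads to be tested. Over all genes tested, 1.36% were called higher and 1.79% lower. Without a term for the mouse, 6 alveolar type 2 markers and 1 basal cell marker were still called lower. The number called was then 0 for multiciliated, club cell and leukocyte markers. In bulk RNA such as this, fewer cells of a type and less RNA per cell cannot be told apart, and the part of these markers in the values below was not tested.

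Compared per kilobase of exon, the core genes spanned a wide range that was similar in both fractions. Celsr1 and Prickle2 were the most abundant, at means of 12.6 ± 3.52 and 12.1 ± 2.35 CPM per kilobase (SD, n = 6 libraries), and they did not differ beyond their spread, Celsr1 being above Prickle2 in 3 of 6 libraries. Vangl1 came next at 6.47 ± 1.99, followed by Dvl3 at 5.39 ± 1.56 and Fzd3 at 4.02 ± 0.523 CPM per kilobase (SD, n = 6 libraries each). The ranges of these last neighbours overlapped, with Vangl1 above Dvl3 and Dvl3 above Fzd3 in 4 of 6 libraries each. Below them the range of Fzd3 did not overlap that of Dvl1, at 2.095 ± 0.686, while Dvl1 and Celsr2, at 1.6 ± 0.268 CPM per kilobase, again overlapped. Dvl2 and Vangl2 were near the limit of detection, at 0.350 ± 0.275 and 0.186 ± 0.236 CPM per kilobase, and Fzd6 was listed at 0 in all 6 libraries. The order of the first 4 depends on the transcript length used, since with the longest annotated transcript it was Prickle2, Celsr1, Dvl3 and Vangl1, with Dvl3 at 8.68 CPM per kilobase.

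**Figure D1:**
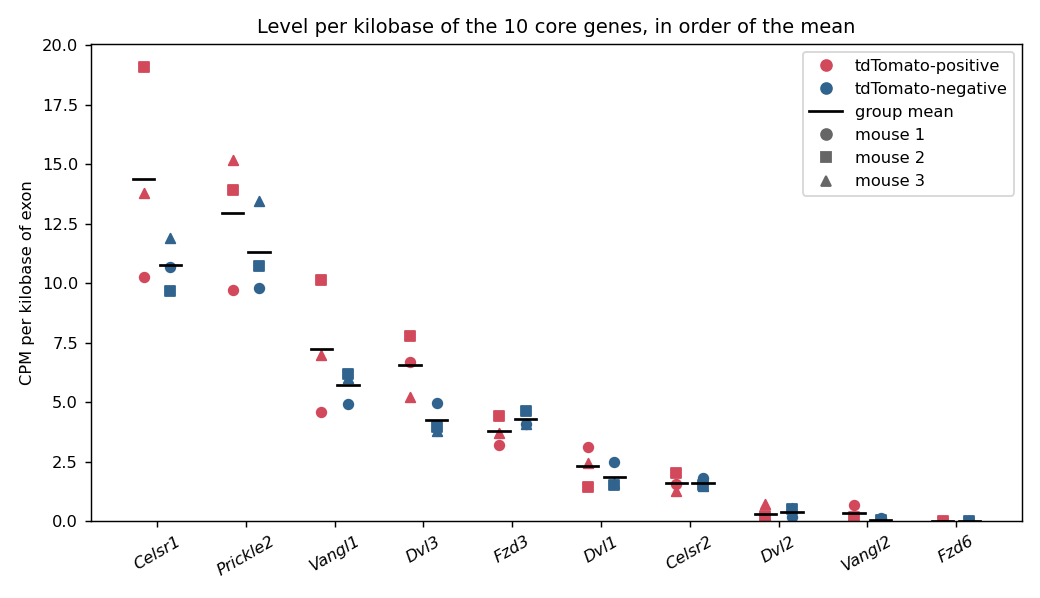
Level of each of the 10 core genes in CPM per kilobase of exon (vertical axis), with 1 point per library (symbols give the mouse), tdTomato-positive left and tdTomato-negative right of each position, and bars at the group means. Celsr1 and Prickle2 lie highest, the points of Celsr1 spreading up to 19.1 in the tdTomato-positive library of mouse 2, and Fzd6 lies at 0.

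None of the 8 core genes that passed the expression filter was called between the fractions (edgeR quasi-likelihood test with the mouse as a term and Benjamini-Hochberg adjustment at 0.05 over 13175 genes). Of all genes tested, 3.15% were called, 1.36% higher and 1.79% lower, so 0 of 8 is near the background. DESeq2 and limma-voom also called 0 of the 8. In the edgeR fit with the mouse term, 1 of the 8, Dvl3, had an unadjusted p under 0.05, as did 15.9% of all genes. Without the mouse term 0 of the 8 were called as well, against 0.622% of all genes. The estimates were above 0 for 5 of the 8 and below 0 for 3, against 6594 above 0 among all 13175 genes tested. The median log2 fold change (tdTomato-positive over tdTomato-negative) of the 8 was 0.23, against 0.00055 over all genes tested. A p-value that misses the threshold does not show equal levels, so the 95% intervals are given for each gene below.

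**Figure D2:**
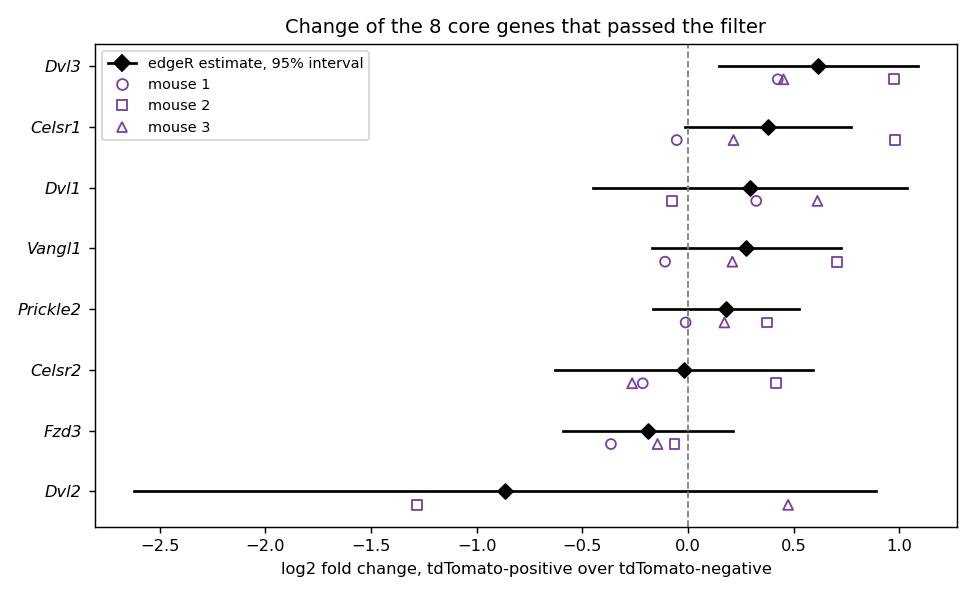
Log2 fold change, tdTomato-positive over tdTomato-negative, of the 8 core genes that passed the filter (horizontal axis), with the edgeR estimate and its 95% interval in black and the ratio within each mouse as an open symbol (none for Dvl2 in mouse 1, which had 0 reads in the tdTomato-positive library). The Dvl3 interval, 0.15 to 1.09, is the 1 that lies wholly above 0, and mouse 2 gives the highest ratio for Celsr1, Vangl1 and Prickle2.

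Celsr1 (chromosome 15, 85898929 to 86033777, minus strand, GRCm38) encodes an atypical cadherin that joins neighbouring cells at the polarised junction. It was at 113, 210.3 and 152 CPM in the tdTomato-positive libraries of mice 1, 2 and 3, against 117, 107 and 131 CPM in the tdTomato-negative ones. Mice 2 and 3 were higher and mouse 1 slightly lower in the tdTomato-positive fraction, and the groups overlapped. The log2 fold change was 0.38 ± 0.186 (SE; 95% interval -0.011 to 0.77; edgeR adjusted p = 0.331). Its paralog Celsr2 (chromosome 3, 108390851 to 108415552) was much less abundant. It was at 17.9, 23.1 and 14.3 CPM in tdTomato-positive against 20.8, 17.3 and 17.2 CPM in tdTomato-negative libraries of mice 1, 2 and 3. These values overlapped, with a log2 fold change of -0.017 ± 0.289 (SE; 95% interval -0.63 to 0.59; edgeR adjusted p = 0.986).

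Fzd3 (chromosome 14, 65192449 to 65262463, minus strand) encodes the Frizzled receptor on the Dishevelled side of the complex. It was the 1 core gene lower in the tdTomato-positive library of every mouse, at 40.7, 56.8 and 47.5 CPM against 52.4, 59.4 and 52.5 CPM in the tdTomato-negative libraries of mice 1, 2 and 3. The differences were small, the groups overlapped, and 18.8% of all genes tested were lower in all 3 mice. The log2 fold change was -0.19 ± 0.19 (SE; 95% interval -0.59 to 0.21; edgeR adjusted p = 0.679), and it was 0.071 when libraries were scaled by size only. Fzd6 (chromosome 15, 39006034 to 39038188), which orients hair follicles and acts with Fzd3 in neural tube closure of the mouse, had 0 reads in all 6 libraries. That allows a level of up to 0.475 to 0.507 CPM in the tdTomato-positive and 0.576 to 0.585 CPM in the tdTomato-negative libraries, from counting error alone. Pdpn and Cldn5, markers of alveolar type 1 and endothelial cells, were likewise at 0 in every library. Of the other alveolar type 1 markers, Hopx and Emp2 were at 36.9 to 142 CPM, and Ager and Aqp5 at 0.794 to 11.1 CPM. Whether such zeros show that a gene was silent, and how they arose, was not tested. Of the Fzd6 exon bases, 152 are shared with Gm26704 on the other strand.

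Vangl1 (chromosome 3, 102153583 to 102204693, minus strand) encodes a membrane protein of the Prickle side. It was at 32.8, 72.5 and 49.9 CPM in tdTomato-positive against 35.3, 44.4 and 43.1 CPM in tdTomato-negative libraries of mice 1, 2 and 3. As with Celsr1, mouse 2 was highest in the tdTomato-positive fraction and mouse 1 slightly lower there, and the groups overlapped. The log2 fold change was 0.28 ± 0.212 (SE; 95% interval -0.17 to 0.72; edgeR adjusted p = 0.569).

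Vangl2 (chromosome 1, 172000960 to 172028444), the paralog known from the looptail mouse, in which the neural tube and inner ear hair cells are disturbed, did not pass the filter. It had 27, 8 and 5 reads in the tdTomato-positive libraries of mice 1, 2 and 3, against 4, 1 and 1 reads in the tdTomato-negative ones. Every tdTomato-positive library was above every tdTomato-negative one, as for 8.29% of the genes tested, and most of its reads came from the tdTomato-positive library that stood apart. The pooled level was 5.57 times higher in the tdTomato-positive fraction, with a 95% interval of 2.35 to 16.1 that covers counting error only, and 5.32 times (1.21 to 48.6) without mouse 1. Over libraries, an exact permutation test of CPM, two-sided, gave p = 0.1, the smallest that 3 against 3 allows, and with no filter the edgeR adjusted p was 0.423. With this number of libraries the permutation test could not pass 0.05, so it decides nothing, and the unfiltered fit did not call the difference. The groups came close, at 0.794 CPM in the tdTomato-positive library of mouse 3 and 0.776 CPM in the tdTomato-negative library of mouse 1. Vangl2 stayed far below Vangl1 in every library.

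Prickle2 (chromosome 6, 92370908 to 92706155, minus strand) encodes the cytoplasmic partner of Vangl. It was at 83.8, 120.1 and 131 CPM in tdTomato-positive against 84.4, 92.6 and 116 CPM in tdTomato-negative libraries of mice 1, 2 and 3. Mice 2 and 3 were higher in the tdTomato-positive fraction and mouse 1 was level, within overlapping groups. The log2 fold change was 0.18 ± 0.163 (SE; 95% interval -0.16 to 0.52; edgeR adjusted p = 0.637), the narrowest interval of the 8.

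**Figure D3:**
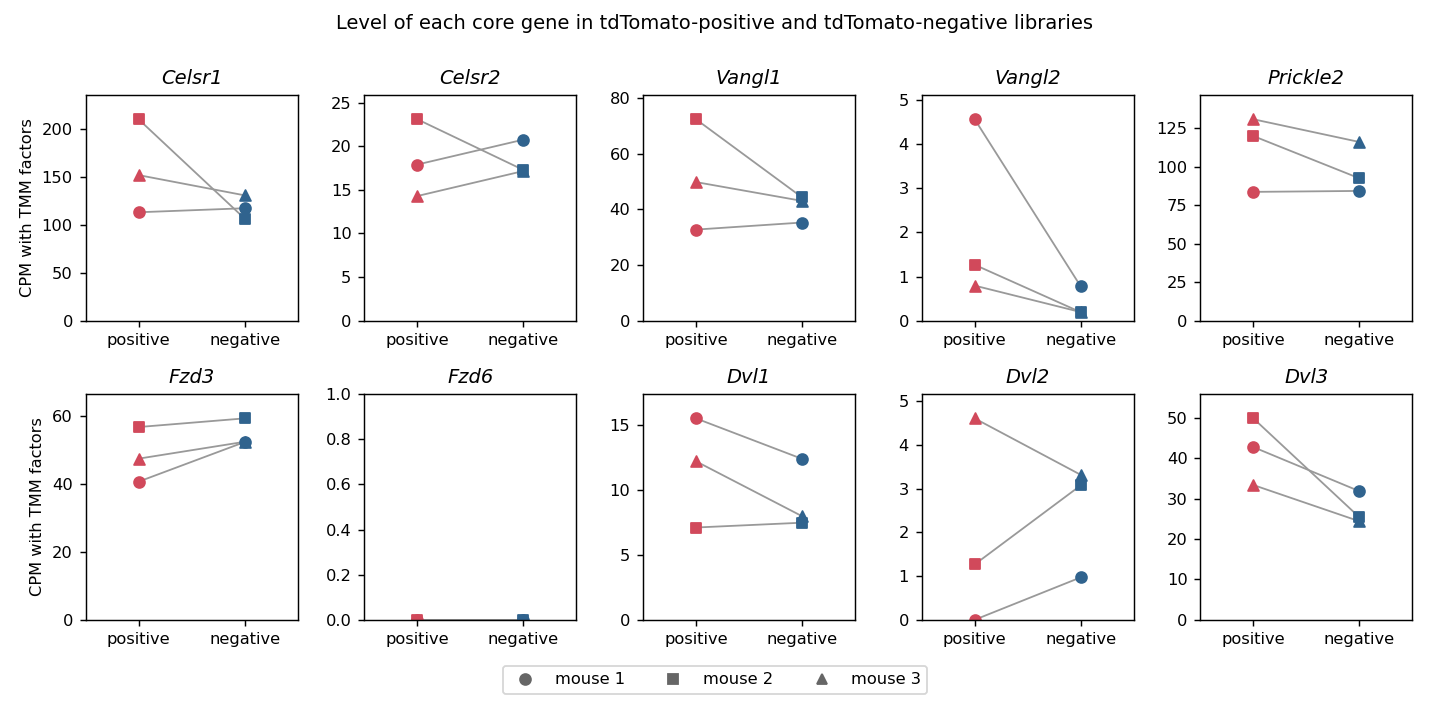
CPM with TMM factors (vertical axes, each from 0) of the 10 core genes in tdTomato-positive (left) and tdTomato-negative (right) libraries, with lines joining the 2 libraries of a mouse. The lines of Dvl3 and Vangl2 fall from left to right in all 3 mice and those of Fzd3 rise, while those of the other detected genes slope in both directions.

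Dishevelled proteins relay Frizzled signals in the cytoplasm, both to planar polarity and to the beta-catenin branch of Wnt signalling. Dvl3 (chromosome 16, 20516982 to 20534010, plus strand) had the largest positive estimate of the 8 tested core genes. It was at 42.7, 49.8 and 33.3 CPM in tdTomato-positive against 31.8, 25.4 and 24.4 CPM in tdTomato-negative libraries of mice 1, 2 and 3. All tdTomato-positive libraries were above all tdTomato-negative ones, as for 8.29% of all genes tested, and 19.8% were higher in the tdTomato-positive library of all 3 mice. The log2 fold change was 0.62 ± 0.224 (SE; 95% interval 0.15 to 1.09; edgeR adjusted p = 0.164, and 0.384 without the mouse term), so it was not called over all genes. It was called when libraries were scaled by size only (0.88, edgeR adjusted p = 0.0412), a scaling that moves the median of all genes to 0.26.

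Dvl1 (chromosome 4, 155847402 to 155859303, plus strand) was at 15.5, 7.12 and 12.2 CPM in tdTomato-positive against 12.4, 7.49 and 7.99 CPM in tdTomato-negative libraries of mice 1, 2 and 3. Mice 1 and 3 were higher and mouse 2 lower in the tdTomato-positive fraction, with a log2 fold change of 0.29 ± 0.351 (SE; 95% interval -0.45 to 1.03; edgeR adjusted p = 0.741). Dvl2 (chromosome 11, 70000595 to 70012301, plus strand) had 0, 8 and 29 reads in tdTomato-positive against 5, 16 and 17 reads in tdTomato-negative libraries. It varied between mice in both directions, and its log2 fold change of -0.87 ± 0.832 (SE; 95% interval -2.62 to 0.89; edgeR adjusted p = 0.662) rests on few reads. Of its 6298 exon bases, 1151 are shared with Acadvl on the other strand and 89 with Mir324, so reads that could not be given to 1 gene may be missing from its count.

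The Dishevelled family is the 1 family here for which the promoter of each paralog can be set beside its measured level, and the promoters are shown for that reason. Each runs from 250 bases before to 50 bases after the RefSeq start on GRCm38.p6, plus strand, at chr4:155847152-155847451 for Dvl1, chr11:70000342-70000641 for Dvl2 and chr16:20516736-20517035 for Dvl3. Capitals mark a match to GTTGCC, the half-site of the RFX factors that act on many ciliary genes.
Dvl1: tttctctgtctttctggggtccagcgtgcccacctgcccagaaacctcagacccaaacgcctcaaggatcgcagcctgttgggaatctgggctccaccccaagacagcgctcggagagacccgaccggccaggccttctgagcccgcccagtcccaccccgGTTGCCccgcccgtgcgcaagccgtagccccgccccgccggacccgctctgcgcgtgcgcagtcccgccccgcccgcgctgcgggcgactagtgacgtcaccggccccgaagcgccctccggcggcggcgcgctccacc
Dvl2: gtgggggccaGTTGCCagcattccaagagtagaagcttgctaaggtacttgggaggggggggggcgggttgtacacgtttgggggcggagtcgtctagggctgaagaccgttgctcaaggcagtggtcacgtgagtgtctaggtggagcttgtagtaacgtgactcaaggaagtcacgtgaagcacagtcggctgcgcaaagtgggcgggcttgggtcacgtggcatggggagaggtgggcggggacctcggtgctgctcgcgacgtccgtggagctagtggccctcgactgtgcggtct
Dvl3: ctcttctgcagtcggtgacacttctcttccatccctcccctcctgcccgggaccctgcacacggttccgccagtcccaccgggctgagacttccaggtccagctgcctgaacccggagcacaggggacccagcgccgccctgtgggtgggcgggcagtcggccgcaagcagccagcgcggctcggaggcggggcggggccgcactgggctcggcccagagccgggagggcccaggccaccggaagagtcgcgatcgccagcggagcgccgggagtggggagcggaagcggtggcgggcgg
Dvl1 and Dvl2 each held 1 half-site, starting at position -89 and position -240 from the start, and Dvl3, the most abundant of the 3, held none in this window. Searched on both strands, the half-site occurs in 12.5% of 32851 RefSeq promoters of the same length. Neither the longer X-box, made of GTTNCC, 2 bases and its reverse complement GGNAAC, which can contain the half-site and occurs in 0.451% of promoters, nor the forkhead motif TGTTTAC, which occurs in 3.65%, matched in any of the 3. CG dinucleotides numbered 35 for Dvl1, 20 for Dvl2 and 30 for Dvl3, against a median of 7 over all promoters. Entries were found for 6 of the 10 core genes, the others being Vangl2, Celsr2 and Prickle2, and no motif matched in those.

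Within the Vangl, Celsr and Dvl families a single paralog held most of the level per kilobase, and it was the same paralog in all 6 libraries. Vangl1 made up 94.7% ± 6.23 of the Vangl level in tdTomato-positive and 98.97% ± 1.01 in tdTomato-negative libraries, and its share was lower in the tdTomato-positive library of each mouse (87.5%, 98.2% and 98.4% in tdTomato-positive against 97.8%, 99.6% and 99.5% in tdTomato-negative libraries of mice 1, 2 and 3). Celsr1 made up 89.7% ± 2.54 of Celsr1 and Celsr2 together in tdTomato-positive and 86.99% ± 1.699 in tdTomato-negative libraries, and its share was higher in the tdTomato-positive library of each mouse. Dvl3 made up 71.0% ± 10.6 of the Dvl level in tdTomato-positive and 65.3% ± 1.21 in tdTomato-negative libraries (SD, n = 3 for each share). Its share spread widely among the tdTomato-positive libraries, at 68.2%, 82.7% and 62.1% in mice 1, 2 and 3, against 65.3%, 66.6% and 64.1% in the tdTomato-negative ones. No difference in these 3 shares between fractions passed an exact permutation test (two-sided p = 0.3 for Vangl1, 0.2 for Celsr1 and 0.6 for Dvl3, and 0.45, 0.45 and 0.6 after Benjamini-Hochberg adjustment), which does not use the pairing by mouse and in which the smallest possible p is 0.1. No share is read from Fzd3 and Fzd6, given the doubt about the Fzd6 zeros.

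**Figure D4:**
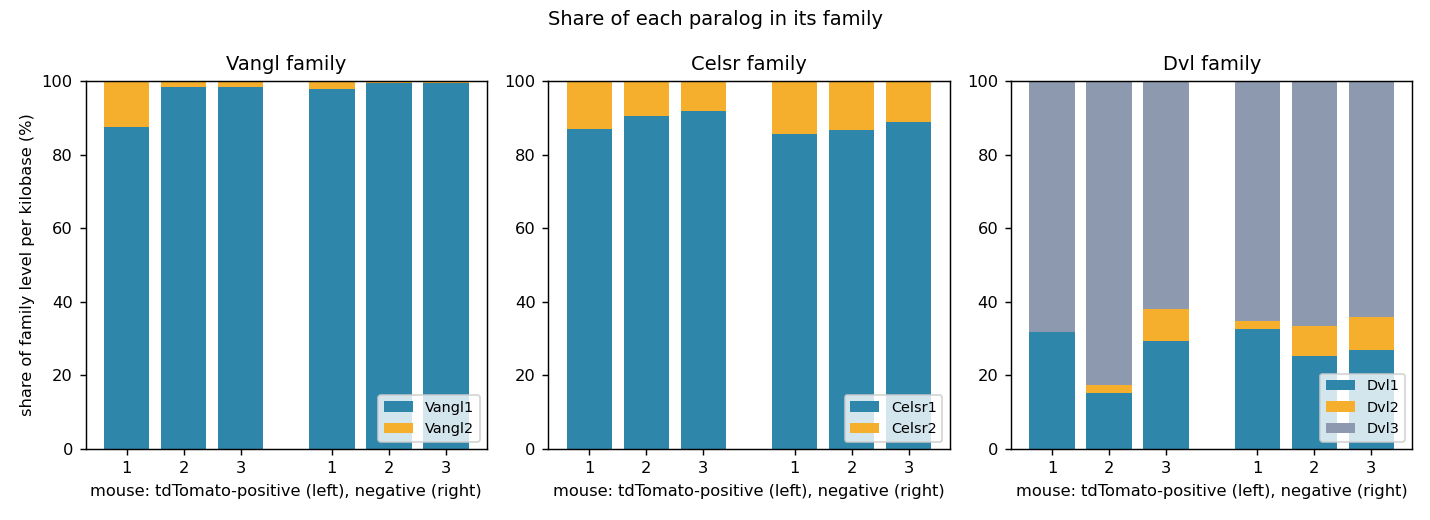
Share of each paralog in its family's level per kilobase (percent, vertical axis) in each library, with the tdTomato-positive libraries of mice 1, 2 and 3 on the left of each panel and the tdTomato-negative ones on the right. Vangl1, Celsr1 and Dvl3 take most of each bar, and Vangl2 is most visible in the tdTomato-positive library of mouse 1, at 12.5%.

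Summed over the 10 core genes, the level was 351, 542 and 446 CPM in the tdTomato-positive libraries of mice 1, 2 and 3, against 356, 356 and 396 CPM in the tdTomato-negative ones. Mouse 2 had the largest difference, 0.61 on the log2 scale, mouse 3 one of 0.17 and mouse 1 one of -0.021, so the groups overlapped. Without mouse 1, the log2 fold change was 0.58 for Celsr1 (edgeR adjusted p = 0.0921), 0.70 for Dvl3 (edgeR adjusted p = 0.144), 0.44 for Vangl1 (edgeR adjusted p = 0.369) and 0.25 for Prickle2 (edgeR adjusted p = 0.62). It was 0.26 for Dvl1, 0.064 for Celsr2, -0.12 for Fzd3 and -0.32 for Dvl2, with edgeR adjusted p of 0.844, 0.958, 0.865 and 0.877, and none was called. Without mouse 2 the estimates were smaller for Celsr1 (0.084), Vangl1 (0.056), Prickle2 (0.084) and Dvl3 (0.44). That for Dvl1 was larger (0.46), those for Fzd3 (-0.25) and Celsr2 (-0.24) were lower, and that for Dvl2 was -0.64. The median over the tested core genes was 0.07, against 0.23 with all mice. Celsr1 and Prickle2 together held 56.1% to 63.5% of the summed CPM in tdTomato-positive and 55.9% to 62.4% in tdTomato-negative libraries.

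Of the other core genes, which were listed but are not among the 10, 3 of 5 passed the filter and none was called, with a median log2 fold change of 0.30. Prickle1, a paralog of Prickle2, was at 14.7, 36.4 and 13.0 CPM in tdTomato-positive against 16.9, 24.8 and 8.97 CPM in tdTomato-negative libraries (log2 fold change 0.30 ± 0.291, SE; edgeR adjusted p = 0.666). Prickle3 was at 6.42, 5.54 and 6.99 CPM in tdTomato-positive against 5.24, 4.42 and 4.48 CPM in tdTomato-negative libraries. Its groups did not overlap, as for 8.29% of all genes tested in that direction, but it was not called (log2 fold change 0.42 ± 0.446, SE; edgeR adjusted p = 0.703). Celsr3, best known from axon guidance in the brain, had no read in any library and was named after its values were seen.

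Among the ligands and co-receptors of the pathway, Wnt4 rose. Wnt4, a secreted Wnt ligand, was at 113, 119.6 and 80.8 CPM in tdTomato-positive against 63.0, 44.6 and 43.9 CPM in tdTomato-negative libraries of mice 1, 2 and 3. The groups did not overlap, as for 8.29% of all genes tested in that direction, and the log2 fold change was 1.05 ± 0.184 (SE; 95% interval 0.66 to 1.44; edgeR adjusted p = 0.00312). The call was lost without the mouse term (edgeR adjusted p = 0.068) and without mouse 3 (edgeR adjusted p = 0.141), at log2 fold changes of 1.05 and 1.13, but not without mouse 1 (1.13, edgeR adjusted p = 0.000108). The summed club cell markers were also higher in these libraries, as given above, and their part in the Wnt4 value was not tested.

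Wnt4 was the 1 call among the 6 of 9 ligand and co-receptor genes that passed the filter. All 6 estimates were above 0, against 6594 of all 13175 genes tested. The median of the 6 was 0.73, against 0.00055 over all genes tested. The other 5, named after their values were seen, are Wnt7b (1.54), Ptk7 (0.78), Ryk (0.67), Wnt5a (0.52) and Wnt11 (0.30), with edgeR adjusted p of 0.14, 0.186, 0.124, 0.263 and 0.609. Ptk7 and Ryk are Wnt co-receptors, and Wnt5a is the ligand most tied to planar polarity. Ptk7 was called without mouse 1 (edgeR adjusted p = 0.0426), and Ryk without mouse 2 (edgeR adjusted p = 0.0418). Ror1, a receptor for Wnt5a that did not pass the filter, went the other way, with 1, 2 and 0 reads in tdTomato-positive against 9, 11 and 23 reads in tdTomato-negative libraries of mice 1, 2 and 3. It was also chosen after its values were seen. With no filter its edgeR adjusted p was 0.045. A stricter filter (at least 1 CPM in every library of a group) kept it only through the tdTomato-negative libraries, where it was higher. The edgeR adjusted p under that filter, 0.0391, therefore follows a selection on these same values and decides nothing. Mesenchymal markers, whose part was not tested, summed to 31.1, 19.1 and 1.59 CPM in tdTomato-positive libraries of mice 1, 2 and 3. In the tdTomato-negative libraries they summed to 62.1, 38.8 and 17.2 CPM.

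Of the 14 effectors, which carry the polarity signal to the cytoskeleton or to cilium formation, all passed the filter and none was called, with a median log2 fold change of -0.011.

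The modulators and trafficking genes had 10 of 11 tested, none called and a median of 0.28. Csnk1d, a casein kinase that phosphorylates Dishevelled, was estimated at 0.50 ± 0.172 (log2 fold change ± SE; edgeR adjusted p = 0.144), and Smurf1, a ubiquitin ligase, 0.32 ± 0.23 (SE; edgeR adjusted p = 0.544). Of the basal foot and basal body alignment genes, 6 of 6 were tested, none was called and the median was -0.066. Cntrl, a centriole appendage protein, was estimated at -0.33 ± 0.141 (log2 fold change ± SE; edgeR adjusted p = 0.254), and Camsap3, which binds microtubule minus ends, 0.48 ± 0.217 (SE; edgeR adjusted p = 0.286).

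The Fat and Dachsous cadherins, a parallel polarity system, had 4 of 7 tested, none called and a median of -0.45. Fat2 was at 1.52, 5.22 and 0.318 CPM in tdTomato-positive against 4.85, 4.80 and 9.36 CPM in tdTomato-negative libraries, estimated at -1.74 ± 0.742 (log2 fold change ± SE; edgeR adjusted p = 0.256). Fat1 was far more abundant, at 516, 906 and 765 CPM in tdTomato-positive against 472, 569 and 674 CPM in tdTomato-negative libraries (log2 fold change 0.33 ± 0.141, SE; edgeR adjusted p = 0.263). Dchs1 and Dchs2, the Dachsous ligands of Fat4, had 0 to 2 reads in every library and were named after their values were seen. Of the other Frizzled receptors, 5 of 8 were tested, none was called and the median was -0.081, with Fzd8 at 0.98 ± 0.553 (SE; edgeR adjusted p = 0.414) and Fzd4 at -0.27 ± 0.354 (SE; edgeR adjusted p = 0.764) on the log2 scale.

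In the beta-catenin branch, which shares Frizzled and Dishevelled with planar polarity, Znrf3 fell. Znrf3, a membrane ubiquitin ligase that removes Frizzled receptors from the cell surface, was at 8.78, 16.3 and 6.99 CPM in tdTomato-positive against 41.3, 28.8 and 20.3 CPM in tdTomato-negative libraries of mice 1, 2 and 3. The groups did not overlap, as for 9.02% of all genes tested in that direction, and the log2 fold change was -1.52 ± 0.314 (SE; 95% interval -2.18 to -0.85; edgeR adjusted p = 0.0107). The call was lost without the mouse term (edgeR adjusted p = 0.15) and without mouse 3 (edgeR adjusted p = 0.297), at log2 fold changes of -1.49 and -1.51, but not without mouse 1 (-1.18, edgeR adjusted p = 0.0238). It was the 1 call among 12 of 13 genes tested, whose median was 0.02. The summed alveolar type 2, leukocyte and basal cell markers were lower in these libraries too, as given above, and their part in the Znrf3 value was not tested.

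**Figure D5:**
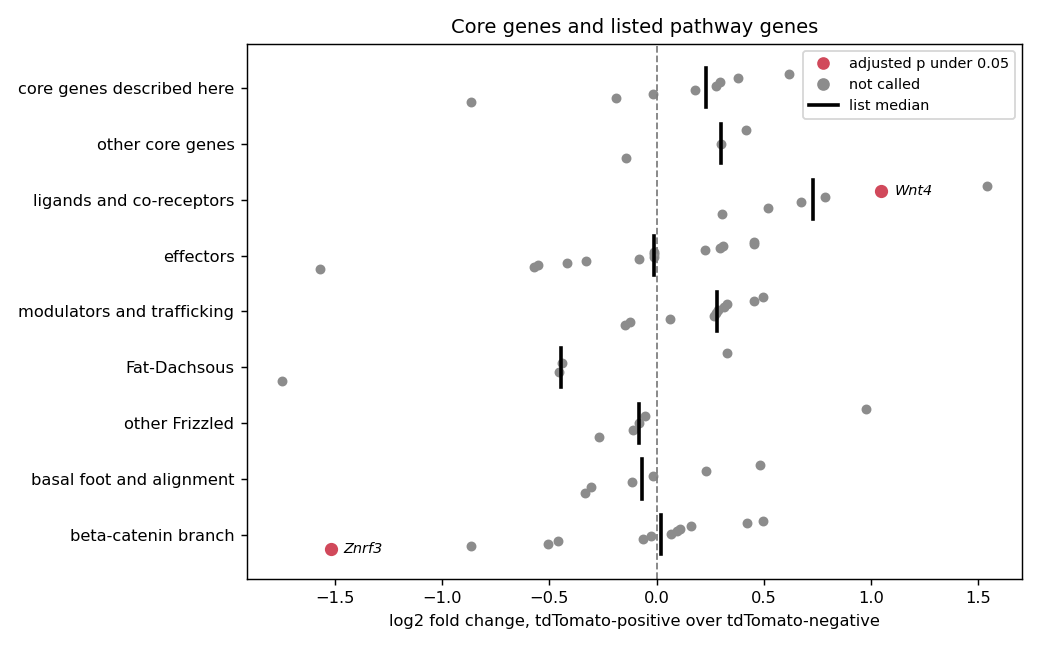
Log2 fold change, tdTomato-positive over tdTomato-negative (horizontal axis), of each tested gene in the list of core genes and 8 pathway lists, with black bars at the list medians and red points for genes called at an adjusted p under 0.05. Wnt4, at 1.05, and Znrf3, at -1.52, are the 2 called genes, and all 6 tested ligand and co-receptor genes lie above 0. Among all 13175 genes tested, which are not drawn, 6594 were above 0.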

How the data were processed

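RNA was measured in 6 libraries. Per the labels' protocols, lungs were digested, cells were sorted, and TruSeq Nano libraries were made from amplified RNA. The authors deposited raw read counts per gene symbol. STAR 2.4.2a, cutadapt 1.7.1 and HTSeq are listed in the submitters' processing notes, with mm10 and GRCm38.p4 as builds. No strand setting is stated, and without one reads of a gene and its antisense partner cannot be told apart. The 5 HTSeq summary rows entered neither library sizes nor tests. Among them, reads in no gene held 41.0% to 49.4%, ambiguous reads 1.31% to 1.99% and reads aligned to several places 8.26% to 12.0% of each file.

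From these counts, 13175 genes passed filterByExpr (count minimum 10) and were tested in R 4.3.3 with the two-sided quasi-likelihood test of edgeR 4.0.16, with TMM factors, robust dispersions, terms for group and mouse, and Benjamini-Hochberg adjustment (threshold 0.05). Standard errors come from the F statistic. The labels give both libraries of a number the same mouse, so libraries are paired by number. Deviations from the group means correlated across genes at 0.263, 0.254 and 0.346 within mice and at -0.213 to -0.0963 between mice. The deviations of a gene within a group cancel out, so positive values within mice entail negative ones between mice on balance. The values between mice are therefore not separate evidence. Because of the pairing, the mouse is a term of the model, and values without it stand beside calls it changes. Lengths and positions are from GENCODE M21 (GRCm38). The model was tested on simulated data. Alternatives were other normalizations and filters, DESeq2 1.42.0, limma-voom (limma 3.58.1), no mouse term, no mitochondrially encoded genes, and leaving out mice or libraries.

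The members and lists were chosen with earlier results of these data known. Named genes are the 10 core genes, Piwil4, and from each pathway list up to 3 called genes or, with none called, the 2 with the smallest p; others are said to be chosen after their values were seen. The genes this rule names among the effectors are not reported here. Intervals of read ratios and floors cover counting error only.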

Additional observations from a re-analysis of the deposited data

How the results depend on the processing

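The count of called core genes was 0 under all alternatives except scaling by library size only, where it was 1 (Dvl3). That scaling put the median over all genes at 0.26 and over the core genes at 0.49. Without the replicate block for the mouse, 82 of all genes were called (6 higher), against 415 (179 higher) with it, and 0 pathway genes, against 2. Called genes numbered 823 (641 higher) with library size only, 677 (327 higher) with no filter and 544 (273 higher) with limma-voom, and pathway genes called were 5, 4 and 4. Leaving out 1 mouse gave 59 (13 higher) without mouse 3 to 633 (279 higher) without mouse 1, and 0 to 4 pathway genes. Leaving out 1 library without the block gave 34, 42, 43, 47, 74 or 113 calls (2 to 15 higher) and 0 pathway genes. The cause of these changes was not tested.

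Celsr2, with an estimate near 0, turned sign without the block (0.0024), with library size only (0.24), without mouse 1 (0.064) or mouse 3 (0.10; -0.24 without mouse 2), and without the block when the tdTomato-positive library of mouse 1 (0.025) or 3 (0.16) or the tdTomato-negative library of mouse 1 (0.096) was left out. Fzd3 turned with library size only (0.071) and Dvl2 without the block and the tdTomato-positive library of mouse 1 (0.26). Celsr1, Vangl1, Prickle2, Dvl1 and Dvl3 kept their sign in all 17 alternatives but varied in size, Celsr1 from 0.084 to 0.64, Vangl1 from 0.017 to 0.58, Prickle2 from 0.062 to 0.44, Dvl1 from 0.06 to 0.59 and Dvl3 from 0.44 to 0.88, and Celsr1 and Vangl1 were close to 0 without mouse 2 (0.084 and 0.056). The median over all genes was -0.16 with no filter, and few reads limit what can be said of Vangl2, Dvl2 and Fzd6.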
